A study of Mus musculus with 4 samples.

Results

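The 2D co-culture library was set against the library of the in vivo tumor, to describe which stromal, immune and tumor cell functions of the tumor the co-culture held and which it lacked. B16F10 is a pigmented melanoma line of C57BL/6 mice, and NIH/3T3 is a mouse embryonic fibroblast line. For the co-culture, green fluorescent B16F10 cells were grown on plastic with NIH/3T3 cells and recovered by sorting, with dead cells stained out. The tumor came from B16F10 cells injected under the skin of female C57BL/6 mice about a year of age. Both libraries carry the genotype label WT and no treatment, and the fibroblasts were the only other cells added to the co-culture. The study's methods describe sorted green cells for the tumor as well, whereas the label of that library names snap frozen tumor. Each condition has 1 library, so no value below has a replicate check, an SD or a p-value. The study's methods speak of several RNA isolations per source, and whether a library pools them is not given in the sources used here. A 2D monoculture of B16F10 and a spheroid of B16F10 with NIH/3T3 were sequenced in the same way, also with 1 library each, and their levels are given where they help.

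The 2 libraries, of 4 in the series, held 118896900 reads on genes for the co-culture and 139592426 for the tumor. Levels are CPM, the reads of a gene relative to the TMM-scaled size of its library, and they compare 1 gene between libraries and not different genes with each other. Genes were kept at a mean CPM of 10 or more over both libraries, which left 9614 of 24527 gene symbols. The ratio of co-culture to tumor is a log2 ratio with 1 CPM added to both levels, so that a ratio of -1 is 2-fold lower in the co-culture. Gene lists for stromal, host tissue, immune and tumor cell functions were written for the comparison, and a list is described by its counts and its median beside those of all genes that passed.

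A subcutaneous tumor is a mixture of malignant cells, fibroblasts that lay down collagen, vessels, and immune cells led by macrophages. Interferons released by lymphocytes and myeloid cells switch on antigen presentation in the cells around them. A co-culture on plastic supplies fibroblasts and their matrix to the melanoma cells, and has no vessels, no immune cells and no limit on oxygen or nutrients of the kind found in tissue.

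Melanocyte markers were present on both sides: Dct, a melanin enzyme, had 4246 CPM in the co-culture and 5127 CPM in the tumor, and Mlana, a melanosome protein, had 970 and 759 CPM. Host markers marked the tumor library. Xist, the RNA that coats the inactive X chromosome, had 0.262 CPM in the co-culture and 69.9 CPM in the tumor. The 28 genes of the macrophage list summed to 3546 CPM in the tumor and 42.7 CPM in the co-culture, and the 20 genes of the skeletal muscle list to 7932 and 61.7 CPM. Genes of host tissue thus had high levels in the tumor library and low levels in the co-culture. In bulk RNA of this kind, fewer cells of a type and less RNA per cell cannot be told apart.

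Of the 9614 genes, 1563 (16.3%) were more than 2-fold lower in the co-culture, 2133 (22.2%) were more than 2-fold higher and 5918 (61.6%) lay within 2-fold. The median log2 ratio of all genes was 0.26 and the median absolute log2 ratio was 0.77. The direction of the bulk of genes depended on scaling. The higher genes were 57.7% of those past 2-fold, against 40.1% with scaling by total counts, 42.0% with TMM factors from genes expressed in the monoculture and 49.2% with upper quartiles. The median of all genes shifted by -0.28, -0.25 and -0.14 on the log2 scale in these settings, so values of lists are best read beside the median of 0.26. The extreme of the low side did not share this balance: 164 genes (1.71%) were more than 32-fold lower and 1 gene (0.0104%) was more than 32-fold higher.

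**Figure D1:**
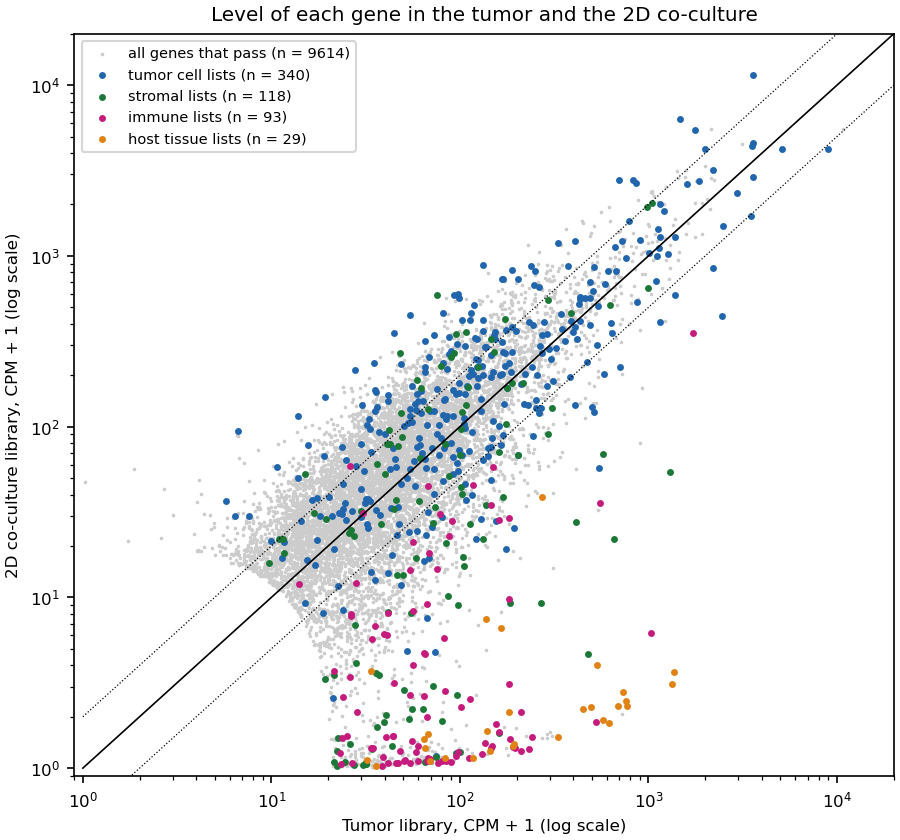
Level of each of the 9614 genes in the tumor library (x axis) and the 2D co-culture library (y axis), both as CPM with 1 added on log scales. The solid line marks equal levels and the dotted lines 2-fold. Colored points are members of the tumor cell, stromal, immune and host tissue lists; many immune and host tissue genes lie along the bottom, near 1 on the co-culture axis, while most tumor cell genes lie around the line.

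The low extreme was made of genes that the melanoma line alone hardly expressed. Of the 164 genes more than 32-fold lower, 152 (92.7%) had under 1 CPM in the monoculture, and these 164 genes took 2.91% of the reads of the tumor and 0.00753% of those of the co-culture. Among all genes lower by more than 2-fold, 1060 (67.8%) had at least 10 CPM in the monoculture, as did 2107 (98.8%) of the genes that were higher. The 15 lowest ratios included Myh4 and Acta1, a myosin and an actin of fast skeletal muscle, with ratios of -8.75 and -8.54. Hp, the hemoglobin scavenger haptoglobin, followed with 1.07 CPM in the co-culture and 727 CPM in the tumor. Ccl6, a macrophage chemokine, had 0.865 and 526 CPM.

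The 15 highest ratios were led by 2 genes that the monoculture lacked. Prl2c2, a prolactin family member also called proliferin, had 46.2 CPM in the co-culture, 0.0246 CPM in the tumor, 0.161 CPM in the monoculture and 0.830 CPM in the spheroid, and it has near-identical neighbors between which reads can be split. Dlk1, a Notch family ligand of preadipocytes, had 55.7 CPM in the co-culture, 0.869 CPM in the tumor, 0 CPM in the monoculture and 1.37 CPM in the spheroid. The others were expressed by the melanoma line itself. L1cam, an adhesion molecule of neurites, had 42.0 CPM in the co-culture, 1.71 CPM in the tumor and 26.3 CPM in the monoculture. Hes1, a repressor downstream of Notch, had 87.8, 5.59 and 32.1 CPM in the same order, and Map1a, a microtubule protein, had 87.3, 5.63 and 311 CPM. Osgin1, an oxidative stress gene, reached a ratio of 3.82.

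Near-equal genes were common. In all, 1811 genes (18.8%) had an absolute log2 ratio under 0.25, and those with the highest mean CPM were mostly of the ribosome. Rps3 had 2162 CPM in the co-culture and 2039 CPM in the tumor, and Rpsa had 1553 and 1612 CPM. Over the cytoplasmic ribosomal proteins, 77 of 84 passed. Of these, 75 (97.4%, against 61.6% of all genes) lay within 2-fold and 2 were higher, with a median of 0.19. Ctnnb1, the adhesion and Wnt protein beta-catenin, had 1339 and 1585 CPM, and Vim, the intermediate filament of mesenchymal and melanoma cells, 1281 and 1379 CPM. Rn45s, the ribosomal RNA precursor, was among them with 2027 and 1932 CPM.

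**Figure D2:**
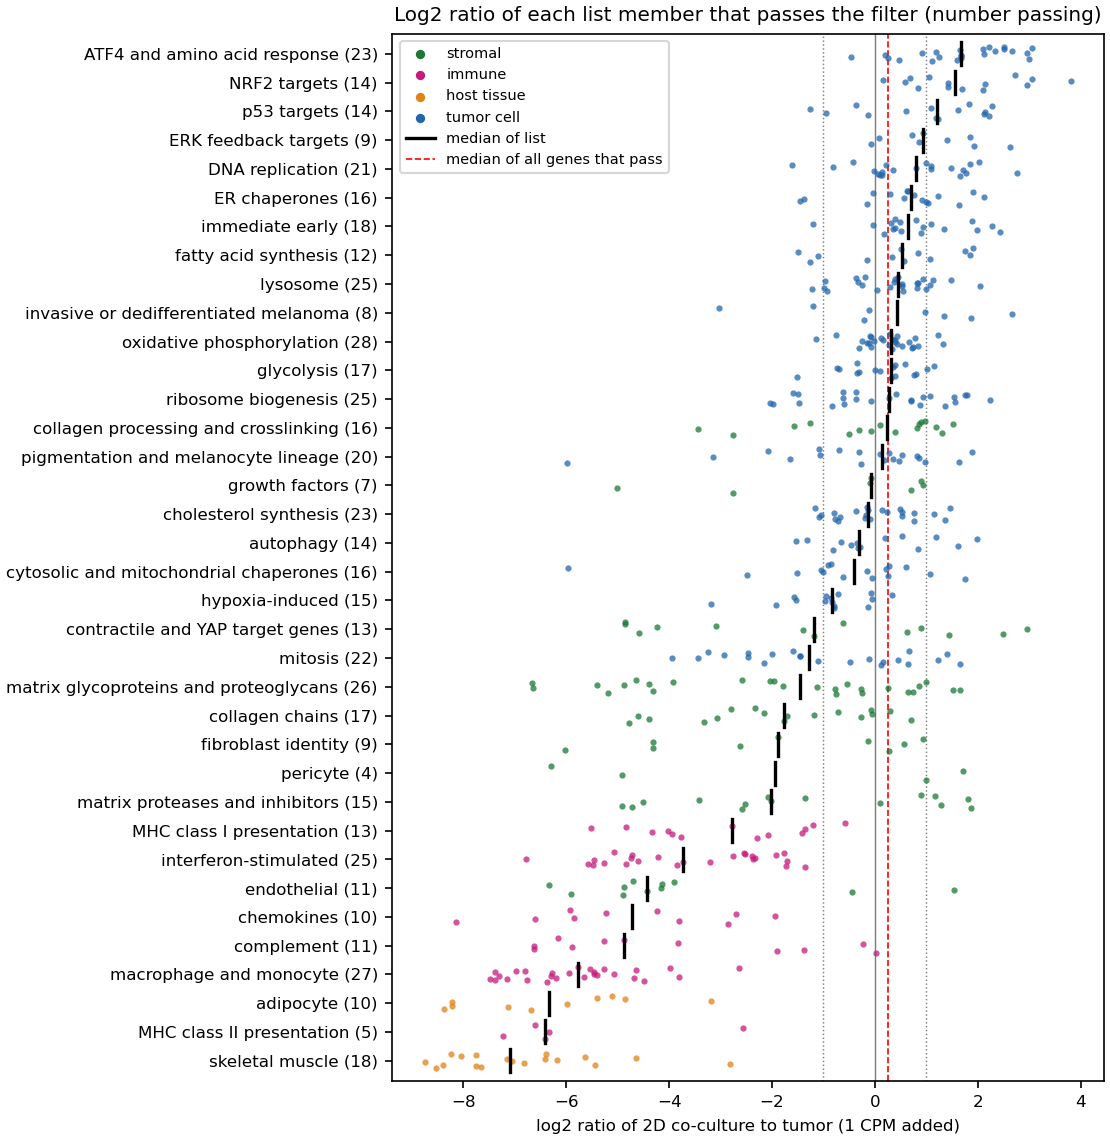
Log2 ratio of co-culture to tumor (x axis) for each member that passed, by list (y axis, with the number that passed), colored by class; the lists with at least 4 such members are drawn, without the ribosomal proteins. Black bars are list medians, the red dashed line is the median of all genes, 0.26, and dotted lines mark 2-fold. The medians run from -7.10 for skeletal muscle to 1.68 for the ATF4 list.

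Stromal function was held in part. Over the stromal lists, 118 of 164 genes passed. Of these, 63 (53.4%, against 16.3% of all genes) were lower in the co-culture, 40 lay within 2-fold and 15 were higher. After correction for GC content and length 72 were lower, and with 10 CPM asked of both libraries 22 were. In the tumor 130 of the 164 had at least 10 CPM, against 81 in the co-culture, so the filter favors the lower direction. The division was within lists as much as between them: a collagen, a crosslinking enzyme or a matrix protein could be at the level of the tumor while its closest partner was far below.

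Collagens showed this most plainly. Collagens are trimers whose chains have fixed partners: types I, III and V form fibrils, type IV the basement membrane, and type VI beaded filaments around cells. Of 17 chains that passed, 11 (64.7%, against 16.3% of all genes) were lower, 6 lay within 2-fold and none of the 17 was higher. The median was -1.77 (between -2.60 and -1.18 in the other settings). After correction for GC content and length 15 of the 17 were lower, against 15.3% of all genes, so fewer chains then lay within 2-fold. The ratios of single chains below are without this correction. Col1a2 had 514 CPM in the co-culture, 622 CPM in the tumor, 2.97 CPM in the monoculture and 4.05 CPM in the spheroid. Its partner in the type I trimer, Col1a1, had 67.7, 575, 2.03 and 5.93 CPM. So the chains of 1 trimer differed: Col1a2 was within 2-fold of the tumor at a ratio of -0.27 and Col1a1 was at -3.07.

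The same held for type VI. Col6a1 had 133 CPM in the co-culture, 107 CPM in the tumor, 0.161 CPM in the monoculture and 3.38 CPM in the spheroid. Col6a2 had 78.0, 82.0, 0.0281 and 2.36 CPM. Col6a3, the third chain, had 14.3, 104, 0.253 and 0.213 CPM, which put it at -2.79 while Col6a1 and Col6a2 were at 0.30 and -0.07. Fibrillar Col3a1 had 53.1 CPM against 1307 CPM in the tumor, a ratio of -4.60, and the type V chains Col5a1 and Col5a2 were at -0.05 and -2.15. Col5a1 was already at 41.8 CPM in the monoculture, whereas Col5a2 and Col3a1 were under 1 CPM there. Basement membrane Col4a1 and Col4a2 were at -1.70 and -1.18. Col12a1 and Col14a1, which associate with fibrils, and Col18a1, of basement membranes, had between 0.742 and 2.59 CPM in the co-culture and between 34.8 and 52.9 CPM in the tumor. Counting error was small beside these differences: with nothing added, the 95% interval of the log2 ratio was -4.66 to -4.58 for Col3a1 and 0.27 to 0.34 for Col6a1.

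Matrix glycoproteins and proteoglycans divided in the same manner. Of 26 that passed, 14 (53.8%, against 16.3% of all genes) were lower, 10 within 2-fold and 2 higher, with a median of -1.45. That median was -2.04 with total counts, -2.18 after correction for GC content and length, and -0.40 with 10 CPM asked of both libraries. Bgn, the proteoglycan biglycan, had 103 CPM in the co-culture, 175 CPM in the tumor and 0.147 CPM in the monoculture. Dcn, the related decorin, had 1.68, 95.7 and 0.407 CPM in the same order. Biglycan was thus near the tumor while decorin, lumican (Lum, 0.0873 and 30.9 CPM) and osteoglycin (Ogn, 0.873 and 38.5 CPM) of the same family were not. Fbln2 had 50.3 CPM in the co-culture and 86.4 CPM in the tumor, and Efemp1 had 17.2 and 10.7 CPM, both with under 1 CPM in the monoculture. The elastic fiber genes Fbn1, Eln and Mfap5 were far lower, with 0.611, 1.04 and 0.900 CPM against 161, 39.4 and 79.8 CPM. Postn, the matricellular protein periostin, had the lowest ratio of the list, -6.67, with 3.68 CPM against 476 CPM. Tnc, tenascin C, had 16.3 CPM in the co-culture, 103 CPM in the tumor and 0.00702 CPM in the monoculture. Some matrix genes that the melanoma line expressed by itself were at or above the level of the tumor: Sparc had 1945 CPM in the co-culture, 977 CPM in the tumor and 2114 CPM in the monoculture, and Fn1, fibronectin, had 465, 388 and 184 CPM. Others were not, such as Sparcl1, a relative of Sparc, with 26.5, 414 and 118 CPM, and the laminin chain Lama4, with 32.8, 73.0 and 61.8 CPM. Fbln1 and Emilin1 were higher, at 1.65 and 1.52.

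Enzymes that process and crosslink collagen were nearer to the tumor than the chains they act on. Of 16 that passed, 4 were lower, 9 within 2-fold and 3 higher, with a median of 0.24 that became -0.02 with total counts and -0.51 after correction for GC content and length. Lox, lysyl oxidase, which crosslinks collagen and elastin, had 179 CPM in the co-culture, 188 CPM in the tumor, 0.00702 CPM in the monoculture and 0.867 CPM in the spheroid. Loxl1 had 36.2, 45, 0.0842 and 0.536 CPM. Both oxidases thus matched the tumor within 2-fold from a level near 0 in the monoculture, whereas Loxl2 had the lowest ratio of the list, -3.44, with 8.04 CPM against 97.1 CPM. Serpinh1, the collagen chaperone, had 2047 and 1045 CPM, and Pcolce, which helps to cleave procollagen, 226 and 78.6 CPM. The 2 lower hydroxylases, Plod2 and P4ha1, are known targets of hypoxia and stood at -1.27 and -1.57. Adamts2, which trims procollagen ends, was at -2.76.

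**Figure D3:**
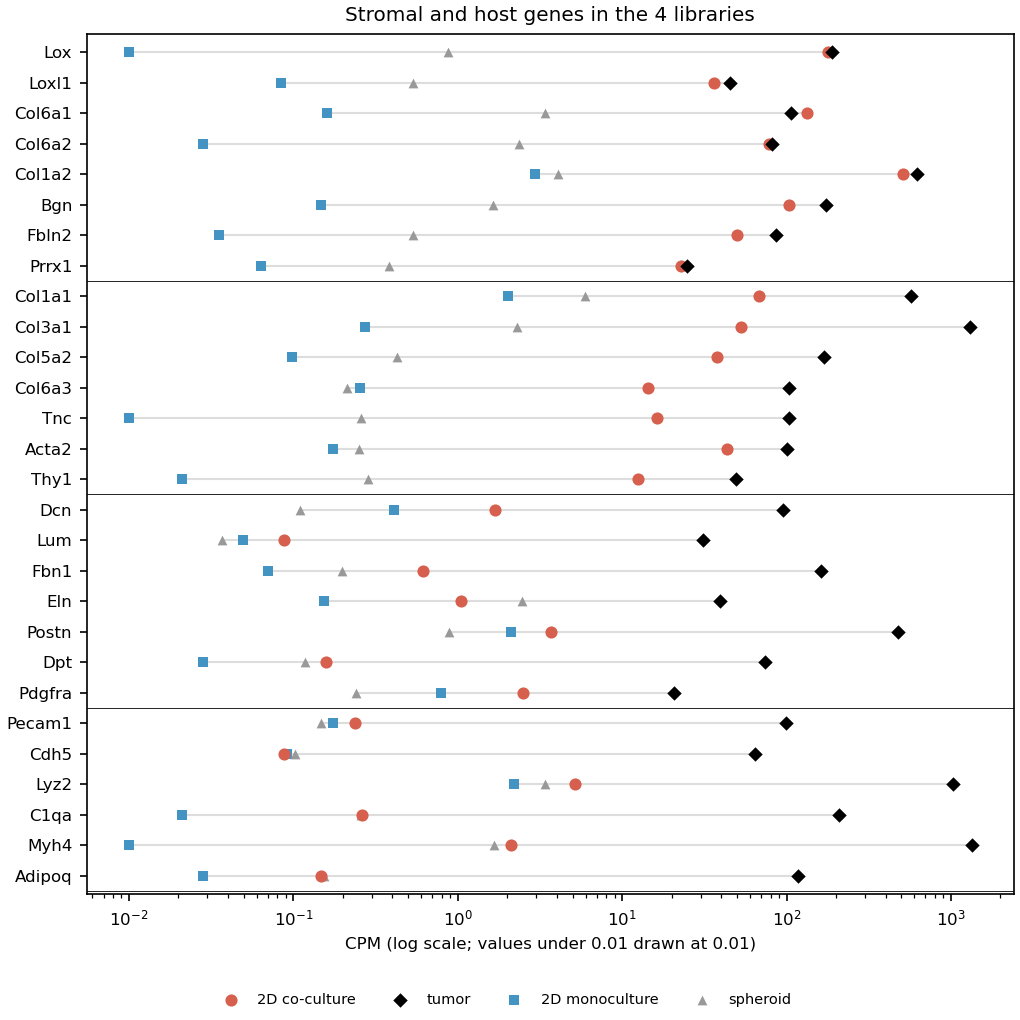
Levels in CPM (x axis, log scale, values under 0.01 drawn at 0.01) of named stromal and host genes (y axis) in the 4 libraries. From the top, the first block holds genes near the tumor in the co-culture. The second holds genes below the tumor with at least 10 CPM in the co-culture. The third holds fibroblast and matrix genes below the tumor with under 10 CPM in the co-culture. The lowest holds endothelial, macrophage, muscle and adipocyte genes. In the upper 2 blocks the co-culture lies to the right of the monoculture and the spheroid. In the lowest all 3 cultures lie far to the left of the tumor.

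Fibroblast identity genes were also divided, with 5 of 9 (55.6%, against 16.3% of all genes) lower, 4 within 2-fold and a median of -1.89. That median became 0.27 when at least 10 CPM was asked of both libraries, since this drops the members that were low in the co-culture, and -2.64 after the GC and length correction. Prrx1, a transcription factor of mesenchyme, had 22.7 CPM in the co-culture, 24.9 CPM in the tumor, 0.0632 CPM in the monoculture and 0.382 CPM in the spheroid. Thy1, a surface marker of fibroblasts, had 12.5, 49.2, 0.0211 and 0.286 CPM. Twist1, Twist2 and Fap did not pass: Twist1 had 3.06 CPM in the co-culture and 5.01 CPM in the tumor, and Fap, the fibroblast activation protein, 0.122 and 10 CPM. Dpt and Pi16, which mark resident fibroblasts of skin and other tissues, had 0.157 and 0.0873 CPM in the co-culture and 74.1 and 20.5 CPM in the tumor. The PDGF receptors stood apart, with Pdgfra at -2.62 and Pdgfrb at 0.56; Pdgfrb had 11 CPM in the monoculture.

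Proteases and their inhibitors had 9 of 15 (60.0%, against 16.3% of all genes) lower, 2 within 2-fold and 4 (26.7%, against 22.2%) higher. The median of -2.02 became 0.90 with 10 CPM asked of both libraries. The membrane protease Mmp14 had 426 CPM in the co-culture, 173 CPM in the tumor and 329 CPM in the monoculture, and its inhibitor Timp2 had 326, 145 and 221 CPM. Mmp2, the gelatinase that this pair activates, was at 0.10. The lower members included the macrophage elastase Mmp12 and the osteoclast and fibroblast protease Ctsk, with 0.0611 and 0.288 CPM against 30.8 and 33.0 CPM. Plau, urokinase, had 2.49 and 36.1 CPM while its receptor Plaur had 51.5 and 14 CPM. Adamts1 had the highest ratio of the list, 1.87.

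Contractile genes were listed with targets of YAP, the factor through which cells read stiffness and spreading. Of 13 that passed, 7 (53.8%, against 16.3% of all genes) were lower, 3 within 2-fold and 3 (23.1%, against 22.2%) higher. The median of -1.19 became 0.76 with 10 CPM asked of both libraries. Acta2, the smooth muscle actin of activated fibroblasts and vessel walls, had 43.6 CPM in the co-culture, 100 CPM in the tumor, 0.175 CPM in the monoculture and 0.25 CPM in the spheroid. Tagln and Myl9, which accompany it in contractile cells, had 9.23 and 0.384 CPM against 85.8 and 25.2 CPM. The YAP targets did not move as a set: Cyr61 had 590 CPM in the co-culture and 74.7 CPM in the tumor, and Amotl2 270 and 47.1 CPM, while Ctgf had 26.3 and 71.1 CPM and Ankrd1 2.03 and 71.3 CPM. Tpm2 and Tgfbi, at -4.85 each, were the lowest, and the part of skeletal muscle in the level of Tpm2 in the tumor was not tested. Among the growth factors, 7 of 20 passed and 5 of these lay within 2-fold, with a median of -0.08 that became 0.41 with 10 CPM asked of both libraries. Vegfa, the vessel growth factor, had 167 CPM in the co-culture and 177 CPM in the tumor. Igf1, which fibroblasts and macrophages supply, had 0.349 and 42.7 CPM, and Angpt2, an angiopoietin, 7.12 and 54.1 CPM.

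The co-culture was also set beside the monoculture. Among genes that passed, 28 had at least 10 CPM in the co-culture and under 1 CPM in the monoculture, and 23 of the 28 were under 1 CPM in the spheroid too. Of the 28, 10 were lower than in the tumor, 13 lay within 2-fold and 5 were higher. These 28 were chosen for a level in the co-culture, which favors genes near or above the tumor. Their median was 74.8% of the tumor level, with quartiles of 24.6% and 128%. The highest 10 were Lox, Col6a1, Bgn, Col6a2, Dlk1, Col3a1, Fbln2, Prl2c2, Acta2 and Gas1, and all 10 are genes that fibroblasts are known to express. Gas1, a growth arrest protein, had 40.6 CPM in the co-culture, 8.12 CPM in the tumor and 0.00702 CPM in the monoculture. Whether these reads came from NIH/3T3 cells in the sorted fraction or from B16F10 cells was not tested. In the other direction, 320 genes had at least 10 CPM in the tumor and under 1 CPM in the monoculture, and 305 of them were lower in the co-culture, 14 within 2-fold and 1 higher, a division that choosing genes by their level in the tumor favors. In the co-culture 234 of the 320 (73.1%) were under 1 CPM.

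Vessel genes were largely lacking from the co-culture. The endothelial list had 9 of 11 (81.8%, against 16.3% of all genes) lower, 1 within 2-fold and 1 higher, with a median of -4.43. That median became -5.19 after the GC and length correction. It became 0.55 with 10 CPM asked of both libraries, a filter that keeps only the 2 exceptions. Pecam1 and Cdh5, the junction proteins of endothelium, had 0.236 and 0.0873 CPM in the co-culture, 99.4 and 64.2 CPM in the tumor, and 0.175 and 0.0912 CPM in the monoculture. Kdr, the receptor of VEGF, had 0.0437 and 29.5 CPM, so that the ligand Vegfa was at the level of the tumor and its receptor was not. The exceptions, Eng at 1.54 and Egfl7 at -0.44, had 285 and 24.5 CPM in the monoculture. Of the whole list of 20, 18 had at least 10 CPM in the tumor and 17 had under 1 CPM in the co-culture. Among pericyte genes, Rgs5 had 0.218 CPM in the co-culture and 94.9 CPM in the tumor, and Des 20.9 and 656 CPM. Cspg4 and Mcam, which melanoma cells express, were instead at 1.0 and 1.72. The skeletal muscle list summed to 61.7 CPM in the co-culture and 7932 CPM in the tumor. The part of muscle in the level of Des was not tested, so Des is not read as a pericyte deficit.

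Host tissue genes were lower without exception among the 29 that passed, 24 of them by more than 32-fold. These genes passed the filter through the tumor, since 33 of all 57 listed had at least 10 CPM there and 1 had in the co-culture, so the filter favors this direction and the counts describe levels only. All 18 passing genes of skeletal muscle (median -7.10, and -2.82 with 10 CPM asked of both libraries) and all 10 of adipocytes (median -6.33) were lower. The adipocyte median was -8.56 with 0.1 CPM added and -4.20 with 5 CPM added. Ckm, muscle creatine kinase, had 0.838 CPM in the co-culture and 615 CPM in the tumor. Fabp4, the fatty acid binding protein of adipocytes, had 0.926 and 575 CPM, and Adipoq, adiponectin, 0.148 and 117 CPM. Myelin gene Mbp was at -4.19. Keratinocyte genes were near 0 on both sides, with sums of 7.93 and 5.82 CPM. Hba-a1, Hba-a2, Hbb-bs and Hbb-bt, the adult hemoglobin genes, had 0 reads in both libraries, and their reads can be split among near-identical copies. The low levels in the co-culture were not 0: over 75 genes with at least 5000 tumor reads and under 0.03% of the level of the tumor in the monoculture, the co-culture had a median of 0.185% of the tumor level (quartiles 0.15% and 0.25%), and none of the 75 had 0 reads. The highest of the 75 was at 95.3%. Of genes outside this set, Pecam1 (0.237%) lay between these quartiles, and Lum (0.283%) and Fbn1 (0.380%) lay above the upper one. Dcn was at 1.75% and Thy1 at 25.4% of the level in the tumor.

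Immune functions were nearly all below the tumor. Of 93 genes that passed, 89 (95.7%, against 16.3% of all genes) were lower, 3 lay within 2-fold and 1 was higher. With no filter on levels 141 were lower, and with at least 10 CPM in both libraries 15 were, and 137 of all 194 listed had under 1 CPM in the co-culture. Most passed through the tumor, where 106 of the 194 had at least 10 CPM against 21 in the co-culture, so here too the filter favors the lower direction.

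Macrophage and monocyte genes were lower in 27 of 27 that passed, 21 of them by more than 32-fold, with a median of -5.78. Of all 28 listed, 25 had under 1 CPM in the co-culture, so the size of the ratio depends on the CPM added. The median was -8.17 with 0.1 CPM added, -3.66 with 5 CPM added and -2.64 with 10 CPM asked of both libraries. Lyz2, lysozyme, had 5.16 CPM in the co-culture, 1032 CPM in the tumor, 2.21 CPM in the monoculture and 3.39 CPM in the spheroid. The complement subunits C1qa, C1qb and C1qc, made by tissue macrophages, had between 0.262 and 0.332 CPM in the co-culture and between 190 and 231 CPM in the tumor. Csf1r, the receptor on which macrophages depend, had 0.236 and 96.6 CPM. Its ligand Csf1 was the 1 immune gene that was higher, with 57.5 CPM in the co-culture, 25.1 CPM in the tumor and 11.4 CPM in the monoculture. Arg1 and Mrc1, linked to a repair state of macrophages, had 130 and 184 CPM in the tumor and 0.210 and 0.472 CPM in the co-culture. The smallest deficit was that of Spp1, osteopontin, at -2.64, which other cells also make.

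Lymphoid and granulocyte genes were low in the tumor too, and none of the neutrophil, dendritic, T, NK, B and mast cell genes passed. Their list sums in the tumor lay between 12.6 CPM (NK and cytotoxic) and 28.3 CPM (mast cell). Cd3e and Cd8a, of the T cell receptor complex and of cytotoxic T cells, had 0.339 and 1.35 CPM in the tumor and 0 CPM in the co-culture. The mast cell proteases Cma1 and Mcpt4 had 7.82 and 8.08 CPM in the tumor, more than most genes of these lists, and 0.00873 and 0 CPM in the co-culture. At this depth a count of 0 allows up to 0.0262 CPM in the co-culture. Jchain, of secreted antibody, had 17.3 CPM in the tumor and 0.0699 CPM in the co-culture.

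Antigen presentation was lower in the co-culture for both classes. Among MHC class I genes, 12 of 13 were lower and 1 lay within 2-fold, with a median of -2.77. H2-K1 had 34.6 CPM in the co-culture, 550 CPM in the tumor, 44.1 CPM in the monoculture and 191 CPM in the spheroid, and its light chain B2m had 351, 1727, 274 and 423 CPM. The immunoproteasome subunits Psmb8 and Psmb9 had 0.122 and 0.550 CPM against 50.2 and 43.4 CPM, while the peptide transporter subunit Tap2 was at -1.21 and its loading partner Tapbp at -0.59. Genes of the H2 family share sequence, and reads can be split among them. MHC class II genes, which macrophages and dendritic cells express, were lower in 5 of 5 that passed, with a median of -6.41. That median was -8.39 with 0.1 CPM added and -4.49 with 5 CPM added. H2-Aa had 0.306 CPM against 194 CPM.

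Interferon-stimulated genes were lower in 25 of 25 that passed, 6 of them by more than 32-fold, with a median of -3.73 (between -4.30 and -1.92 in the other settings). Among the lowest were guanylate-binding proteins and immunity-related GTPases, which interferon gamma induces: Iigp1 had 0.341 CPM in the co-culture, 147 CPM in the tumor, 0.0491 CPM in the monoculture and 0.198 CPM in the spheroid. Gbp2 had 1.53, 112, 5.0 and 0.602 CPM, and Igtp 1.28, 99.9, 1.81 and 2.26 CPM. The smallest deficits were those of Bst2, Ifit2 and Cmpk2, between -1.72 and -1.36, and the antiviral genes Rsad2 and Isg15 were at -1.92 and -2.38. Members of a family could differ, with Ifit3 at -4.60 and Ifit2 at -1.70. Ifng itself had 0.388 CPM in the tumor and 0.0175 CPM in the co-culture. Beside these values the macrophage list, 27 of 27 lower, summed to 42.7 CPM in the co-culture and 3546 CPM in the tumor, and its part in the interferon and antigen presentation levels was not tested. Members of the Ifit, Gbp and Irgm families resemble each other, and reads can be split among them.

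Promoters of these genes often held the letters of the element that interferon factors bind. The motif TTTCNNTTTC, searched on both strands in the 250 bases before each start site of the RefSeq promoters (GRCm38.p6), was found in 12 of 21 interferon genes with a promoter (57.1%), against 3.19% of 7580 genes with a promoter and 2.61% of all 9699 promoters. A match is a description of letters and not a bound site. The windows of 2 of the genes with the lowest ratios, chosen after their values were seen, are shown on the strand of the gene with the match in capitals, which in Igtp is on the other strand. Gbp2 lies at chr3:142620579-142620638 on the plus strand, with the match starting 59 bases before the start site, and Igtp at chr11:58199497-58199555 on the plus strand, with the match 34 bases before it.
Gbp2: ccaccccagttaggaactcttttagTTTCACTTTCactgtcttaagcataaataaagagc
Igtp: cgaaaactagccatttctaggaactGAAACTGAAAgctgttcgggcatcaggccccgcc

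Most complement and chemokine genes that passed were lower, and few cytokines passed. Complement genes were lower in 9 of 11 that passed, with a median of -4.88 that became -3.31 with 5 CPM added and -0.80 with 10 CPM asked of both libraries. C3, the central component, had 1.14 CPM in the co-culture and 210 CPM in the tumor, and Serping1, which inhibits C1, had 0.0699 and 75.3 CPM. C1ra, the protease partner of C1q, was at 0.02, with 30.0 CPM in the co-culture, 29.7 CPM in the tumor and 13.4 CPM in the monoculture. Chemokines were lower in 10 of 10 that passed, with a median of -4.73. That median was -2.96 with a mean of at least 1 CPM, -2.78 with no filter, -2.99 with 5 CPM added and -1.95 with 10 CPM asked of both libraries. Ccl2 and Ccl7, which draw monocytes, had 8.16 and 3.01 CPM in the co-culture, 65.7 and 55.3 CPM in the tumor, and 0 reads in the monoculture. Cxcl12, the stromal chemokine, had 5.07, 38.5 and 0.0562 CPM, so these 3 were above the monoculture and below the tumor. Cxcl9, which draws T cells under interferon gamma, had 0.105 and 66.2 CPM, while Cxcl10 of the same family had 21.8 and 86.9 CPM. Cxcl1 did not pass but had 10 CPM in the co-culture, 4.85 CPM in the tumor and 0.0912 CPM in the monoculture. Of 15 cytokines, Il33 was lower at -2.92 and Csf1 higher at 1.17, and the others did not pass, among them Il1b with 0.0175 and 15.9 CPM and Il6 with 0.725 and 3.93 CPM.

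Tumor cell genes lay within 2-fold about as often as all genes. Over their lists, 340 of 361 genes passed, of which 193 (56.8%) lay within 2-fold, 97 (28.5%) were higher and 50 (14.7%) lower, against 61.6%, 22.2% and 16.3% of all genes. The lists departed from the median of all genes in both directions.

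Pigmentation genes were near the tumor as often as genes in general, and were lower more often only before the GC and length correction. Of 20 genes of the melanocyte lineage, 12 (60.0%) lay within 2-fold, 6 (30.0%) were lower and 2 higher, against 61.6% and 16.3% of all genes within 2-fold and lower. The median was 0.14, which became -0.13 with total counts, -0.11 with factors from monoculture genes and -0.05 after the GC and length correction. With that correction 3 of the 20 were lower and 1 higher, against 15.3% and 7.48% of all genes. Tyrp1, a melanin enzyme, had 4232 CPM in the co-culture, 8948 CPM in the tumor, 6168 CPM in the monoculture and 2455 CPM in the spheroid. Pmel, which forms the fibrils of the melanosome, had 3198, 2208, 2923 and 3478 CPM. The regulators Mitf and Sox10 departed more than these: Mitf, the master factor of melanocytes, had 223, 708, 416 and 70.3 CPM, and Sox10, which acts above it, had 871, 237, 834 and 902 CPM. Gpnmb, a melanosome glycoprotein, was higher at 1.63. Ednrb, the endothelin receptor, had the lowest ratio, -5.98, with 0.183 CPM in the co-culture, 73.5 CPM in the tumor and 0.00702 CPM in the monoculture, and vessel cells are known to express it. Trpm1 and Oca2 were at -2.08 and -3.14.

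Genes of an invasive or dedifferentiated melanoma state did not move as a set, with 2 lower, 3 within 2-fold and 3 higher of 8 and a median of 0.43 that became -0.06 after the GC and length correction and also turned below 0 under weaker filters. The receptor kinase Axl had 56.0 CPM in the co-culture, 65.3 CPM in the tumor and 18.2 CPM in the monoculture. Cdh2, N-cadherin, had 130, 35.2 and 136 CPM, and Tead4, a partner of YAP, 35.6, 4.76 and 31.0 CPM. Zeb1 had 1.59 and 20.1 CPM, and Zeb2 45 and 105 CPM, so both Zeb factors were lower in the co-culture. Ngfr, a marker of the dedifferentiated state, had 0.646 and 0.647 CPM.

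Cell cycle lists differed by phase, with exceptions in both. DNA replication genes were higher in 9 of 21 (42.9%, against 22.2% of all genes), within 2-fold in 11 and lower in 1. Their median was 0.80 (0.53 with total counts and 0.41 after the GC and length correction). With that correction 4 of the 21 were higher, against 7.48% of all genes. Mcm2, of the replicative helicase, had 811 CPM in the co-culture, 248 CPM in the tumor and 489 CPM in the monoculture. Cdt1, which loads the helicase, had 235, 34 and 122 CPM, and Rrm2, of ribonucleotide reductase, 728, 203 and 473 CPM. Its partner subunit Rrm1 was the lower gene, at -1.61. Mitotic genes were lower in 12 of 22 (54.5%, against 16.3% of all genes), within 2-fold in 7 and higher in 3. Their median was -1.28. Top2a, topoisomerase II of mitotic chromosomes, had 56.5 CPM in the co-culture, 544 CPM in the tumor, 168 CPM in the monoculture and 23.5 CPM in the spheroid. Mki67, the proliferation marker Ki-67, had 24.5, 193, 87.3 and 16.5 CPM. Yet Aurkb, Plk1 and Cdc20, which act in the same phase, were at 1.65, 1.4 and 1.23, and Cdk1 was at -0.11. The 12 lower mitotic genes had a median GC content of 43.3% and a median transcript length of 4020 bases, against 55.6% and 1950 bases for the 3 higher ones. After the GC and length correction 12 were lower and 1 higher, with a median of -1.25.

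GC content moved with the ratio over all genes. The Spearman correlation of the log2 ratio with GC content was 0.546 across 9433 genes (98.1% of those that passed), a description across genes of 2 libraries, and that with transcript length was -0.053. In 4 equal groups of genes ordered from low to high GC content, the median log2 ratio was -0.47, 0.05, 0.51 and 1.0. Lower genes had a median GC content of 44.9% and higher genes of 55.0%. Its part in the ratios was not tested, and the value after removal of the median of each class of GC content and length is given beside many of the lists. With this correction 706 genes were higher and 1446 lower, so the higher genes were 32.8% of those past 2-fold.

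**Figure D4:**
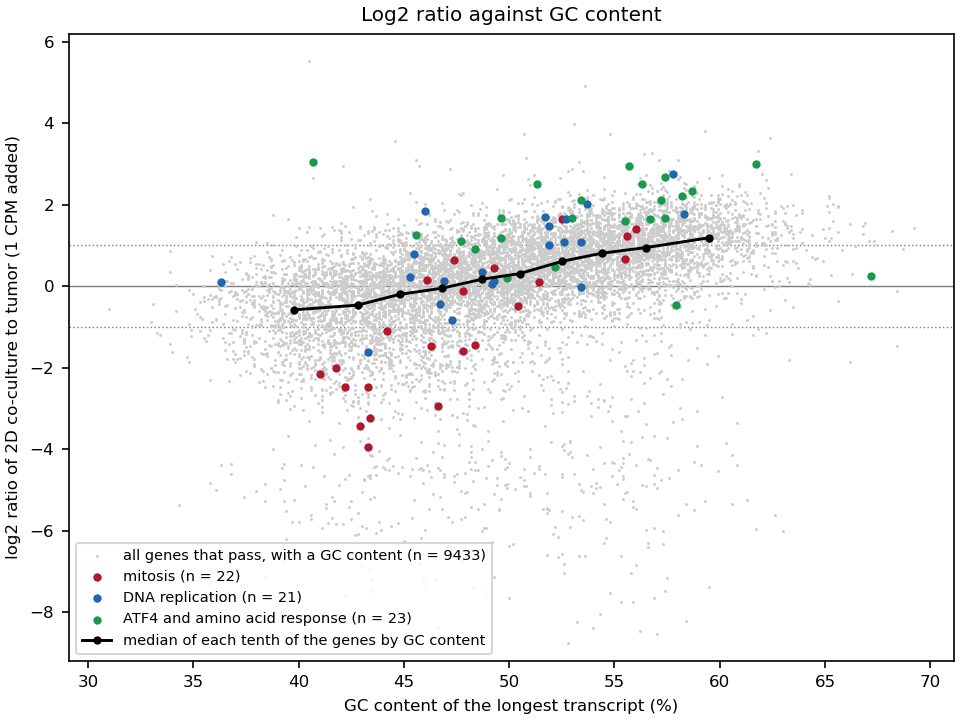
Log2 ratio of co-culture to tumor (y axis) against the GC content of the longest transcript in percent (x axis) for 9433 genes in grey, with mitosis, DNA replication and ATF4 genes in color. Dotted lines mark 2-fold and the black line joins the medians of 10 equal groups of genes by GC content, which climb from left to right; mitotic genes below 45% lie under the line and ATF4 genes mostly above it.

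Hypoxia-induced genes leaned to the tumor. Of 15 that passed, 4 (26.7%, against 16.3% of all genes) were lower and 11 within 2-fold. None of the 15 was higher, against 22.2% of all genes. The median was -0.83 (between -1.13 and -0.79 in the other settings). Car9, carbonic anhydrase IX, had 18.3 CPM in the co-culture, 175 CPM in the tumor, 10.1 CPM in the monoculture and 65.2 CPM in the spheroid. Bnip3, a mitophagy receptor, had 130, 500, 110 and 233 CPM. Vegfa was the exception among the abundant members, at -0.08. Glycolysis had 14 of 17 (82.4%, against 61.6% of all genes) within 2-fold. Its median was 0.31, which became -0.73 after the GC and length correction. Pkm, pyruvate kinase, had 4566 and 3588 CPM, and Ldha, lactate dehydrogenase, 2892 and 3596 CPM. Aldoc, the hypoxia-responsive aldolase, was the lower member at -1.51. Eno1 was listed at 0.908 and 0.887 CPM, and reads of this gene can be lost to a near-identical copy. Oxidative phosphorylation had 25 of 28 (89.3%) within 2-fold with a median of 0.32 (0.04 with total counts and 0.02 after the correction). Atp5b, of the ATP synthase, had 2652 and 1608 CPM.

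Genes of the amino acid stress response were mostly above the tumor. ATF4 is the factor that cells translate when amino acids run short or proteins misfold, and its targets make and import amino acids. Of 23 genes that passed, 18 (78.3%, against 22.2% of all genes) were higher and 5 within 2-fold, with a median of 1.68. That median was 1.41 with total counts and 1.05 after the GC and length correction. With that correction 13 were higher, against 7.48% of all genes. Atf4 itself had 1229 CPM in the co-culture, 407 CPM in the tumor, 671 CPM in the monoculture and 2713 CPM in the spheroid. The transporters Slc7a5 and Slc7a11 had 460 and 115 CPM in the co-culture, 80.1 and 12.9 CPM in the tumor, and 173 and 420 CPM in the monoculture. Shmt2 and Phgdh, of serine and one-carbon metabolism, had 592 and 727 CPM against 92.0 and 167 CPM. The serine enzymes and transporters Shmt2, Phgdh and Slc7a5 were thus above both the tumor and the monoculture, while the stress factors Ddit3, Trib3, Chac1 and Sesn2 had 141, 163, 74.5 and 77.4 CPM and were above the tumor and below the monoculture. Ddit4, which hypoxia also induces, had the lowest ratio, -0.47.

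The letters TGATGNAA, a core of the element bound by ATF4 with its partners, were found in the same promoter windows of 6 of 21 genes of the list (28.6%), against 2.22% of 7580 genes and 1.85% of all promoters. Slc7a11, with the highest ratio of the list, and Chac1 are shown, chosen after their values were seen, on the strand of the gene with every match in capitals. Chac1 has 1 match, on the opposite strand, and Slc7a11 has 2, the first on its own strand and the second on the opposite one. Slc7a11 lies at chr3:50443628-50443685 on the minus strand, with the second match 47 bases before the start site, and Chac1 at chr2:119351024-119351081 on the plus strand, with the match 193 bases before it.
Slc7a11: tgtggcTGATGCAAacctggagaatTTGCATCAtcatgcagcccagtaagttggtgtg
Chac1: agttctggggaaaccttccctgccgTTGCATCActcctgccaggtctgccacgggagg

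Antioxidant targets of NRF2 were also mostly above the tumor. Of 14 that passed, 10 (71.4%, against 22.2% of all genes) were higher and 4 within 2-fold, with a median of 1.56. After the GC and length correction 9 of the 14 were higher, against 7.48% of all genes. The median was then 1.10, beside 1.05 for the ATF4 list, so the order of these lists turned. Srxn1, sulfiredoxin, had 448 CPM in the co-culture, 53.2 CPM in the tumor, 1355 CPM in the monoculture and 831 CPM in the spheroid. Gclm, of glutathione synthesis, had 213, 26.7, 181 and 271 CPM, and Txnrd1, thioredoxin reductase, 878, 132, 591 and 553 CPM. The ferritin chains Fth1 and Ftl1 had 6346 and 11532 CPM against 1471 and 3582 CPM, and both have pseudogene copies that can take reads. Prdx1 was at 0.16. The letters TGACNNNGC of the antioxidant element were in 4 of 11 of these promoters (36.4%), against 14% of 7580 genes and 11.7% of all promoters.

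**Figure D5:**
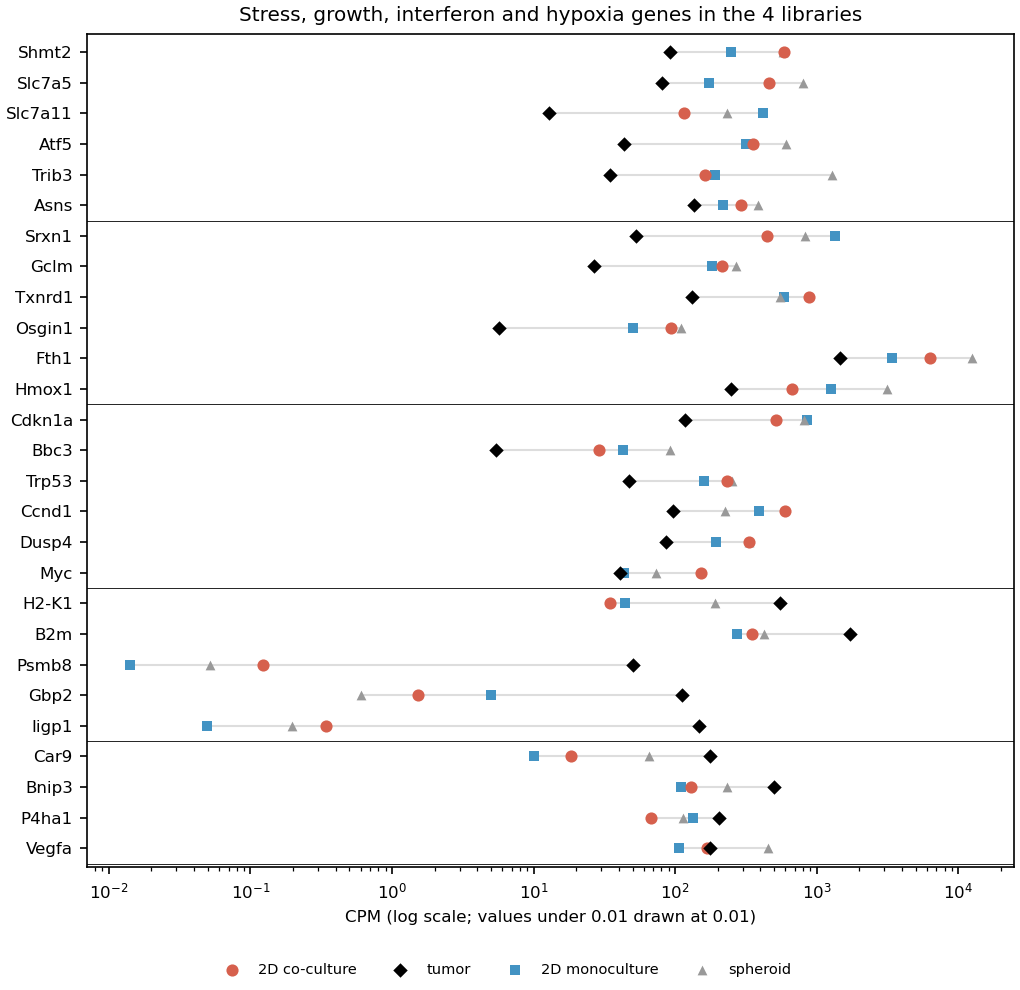
Levels in CPM (x axis, log scale) of named genes (y axis) in the 4 libraries. From the top, the blocks hold ATF4, NRF2, p53 and growth, antigen presentation and interferon, and hypoxia genes; in the upper 3 blocks the tumor lies to the left of the 3 cultures, by least for Myc, at 40.6 CPM in the tumor and 43.3 CPM in the monoculture, and in the fourth it lies to their right.

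Most p53 genes were higher, and genes of growth signaling were divided between higher and within 2-fold. Of 14 p53 genes, 9 (64.3%, against 22.2% of all genes) were higher, 4 within 2-fold and 1 lower, with a median of 1.21. After the GC and length correction the median was 0.74 and 6 were higher, against 7.48% of all genes. Cdkn1a, the cell cycle inhibitor p21, had 515 CPM in the co-culture, 118 CPM in the tumor and 847 CPM in the monoculture. Trp53 had 232, 47.4 and 160 CPM, and the death gene Bbc3 28.9, 5.43 and 42.8 CPM. Sesn1 was the lower member, at -1.26. Targets of the ERK pathway that feed back on it were higher in 4 of 9 (44.4%, against 22.2% of all genes) and within 2-fold in 5, with a median of 0.94. Ccnd1, cyclin D1, had 599 CPM in the co-culture, 96.2 CPM in the tumor, 390 CPM in the monoculture and 225 CPM in the spheroid, and the phosphatase Dusp4 had 332, 86.7, 194 and 331 CPM, whereas Dusp6 was at -0.07. Immediate early genes were higher in 6 of 18 (33.3%, against 22.2% of all genes), within 2-fold in 11 and lower in 1. Their median was 0.65 (0.08 after the correction). Myc had 153 CPM in the co-culture, 40.6 CPM in the tumor and 43.3 CPM in the monoculture, Egr1 had 57.0, 9.71 and 12.1 CPM, and Jun 316, 64.4 and 200 CPM. These 3 were above both the tumor and the monoculture. Klf2, a gene of endothelium and lymphocytes, was the lower member at -1.20.

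Chaperones of both compartments lay within 2-fold about as often as all genes, at 56.2% each against 61.6%. In the endoplasmic reticulum, 5 of 16 (31.2%, against 22.2% of all genes) were higher, 9 within 2-fold and 2 lower. The median was 0.70 (0.43 with total counts). Hspa5 (BiP) had 2747 and 1858 CPM, and Hyou1 and Calr had 830 and 2665 CPM against 189 and 863 CPM. Hsp90b1 and Dnajc3 were lower, at -1.37 and -1.46. In the cytosol and mitochondria, 5 of 16 (31.2%, against 16.3% of all genes) were lower, 9 within 2-fold and 2 higher. The median was -0.40. The paralogs Hsp90aa1 and Hsp90ab1 went in opposite directions, with 441 and 4214 CPM in the co-culture, 2466 and 1995 CPM in the tumor, and 2917 and 5711 CPM in the monoculture. Hspb1 had 0.105 CPM in the co-culture, 68.3 CPM in the tumor and 0.133 CPM in the monoculture. Hspa1a and Hspa1b are near-identical, and their reads can be split between them.

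Lipid, ribosome, lysosome and autophagy lists differed in how many genes lay near the tumor. Cholesterol synthesis had 17 of 23 (73.9%, against 61.6% of all genes) within 2-fold and a median of -0.14. The sterol-sensing factor Srebf2 had 362 CPM against 131 CPM, while the enzyme Idi1 had 62.7 CPM against 131 CPM. In fatty acid synthesis, 4 of 12 were higher, 5 (41.7%, against 61.6% of all genes) within 2-fold and 3 lower, with a median of 0.53 that became -0.03 after the GC and length correction. Fasn, fatty acid synthase, had 1194 and 331 CPM. The desaturases parted, with Scd2 at 2785 and 830 CPM and Scd1, abundant in adipocytes, at 203 and 578 CPM. Ribosome biogenesis had 13 of 25 (52.0%) within 2-fold, 7 higher and 5 lower and a median of 0.28, which became -0.09 after the correction. Nop2 was highest at 2.24 and Mdn1 lowest at -2.04, and Ncl, nucleolin, had 411 and 1146 CPM. Of 25 lysosome genes, 19 (76.0%) lay within 2-fold and the median was 0.44 (-0.10 after the correction). Ctsd, cathepsin D, had 2018 and 1148 CPM, while Ctsb, cathepsin B, was the 1 lower member with 593 and 1379 CPM, and macrophages express both. Of 14 autophagy genes, 9 (64.3%) lay within 2-fold, with a median of -0.30. Sqstm1, the receptor p62 and a known NRF2 target, had 2792 CPM in the co-culture, 701 CPM in the tumor and 4733 CPM in the monoculture.

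The macrophage and muscle sums given above, high in the tumor and low in the co-culture, stand beside every ratio of a tumor cell gene, and their part in these ratios was not tested. The culture condition, the sort and the tissue source cannot be told apart with 1 library a side.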

How the data were processed

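RNA enriched for poly(A) was sequenced from 4 mouse libraries, 1 per condition. The authors deposited 1 table of whole-number read counts per gene symbol, without normalization. Per the submitters' processing notes, reads were trimmed with Trimmomatic, aligned to mm10 with STAR and counted with featureCounts. Not given in the sources used here are versions, annotation and strand setting, so overlapping and antisense genes cannot be told apart. Paralogs can share reads.

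CPM values used TMM factors of the 4 libraries (edgeR 4.0.16, R 4.3.3), which were 0.963 for the co-culture and 1.16 for the tumor. Genes were kept at a mean CPM of 10 or more over both libraries, 1 CPM was added before log2 ratios, and calls are more than 2-fold. The study's methods name NOISeq and GFold, which were not run. Intervals are exact Clopper-Pearson at 95%, computed with scipy 1.17.1, and together with the limit of 3 reads for a count of 0 cover counting error only. No test was made, since each condition has 1 library. Totals of 118896900 and 139592426 reads set 3 reads at 0.0262 CPM in the co-culture and 0.0185 CPM in the tumor. The ratio and its filter were tested on simulated data, and the lists were not. Tables were made in Python 3.11.15 (pandas 2.3.3, numpy 2.4.6) and figures with matplotlib 3.10.9.

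GC content and length came from the longest transcript of each symbol in GENCODE M21, which may not be the authors' annotation. The correction subtracts the median of 10 classes of GC content by 10 of length. Promoters are RefSeq windows on GRCm38.p6, of which the 250 bases before the start site were searched. The comparison, the 46 lists and the rule for named genes were chosen with earlier results of these data known. Named were the 15 highest and 15 lowest ratios, the 10 most abundant genes of absolute log2 ratio under 0.25, the 10 highest co-culture genes under 1 CPM in the monoculture and, from each list, the 4 most abundant members, the highest and lowest ratios and any other member whose role is described; not every gene so chosen is printed. Alternatives were other scalings (DESeq2 1.42.0 size factors among them), pseudocounts, filters, folds and the GC and length correction. A few members of the lists are counted but not reported by name here.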

Additional observations from a re-analysis of the deposited data

How the results depend on the processing

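No paired analysis was possible because no condition has more than 1 library. Across 13 other settings, 74 of 91 recomputed counts stayed within 1.5 times, and 371 of 415 list medians within 1.5-fold. For values that moved, the cause was not tested, although stricter filters keep fewer genes and other folds call more or fewer by construction. Genes higher in the co-culture numbered 1362 with total counts, 706 with the GC and length correction, 3581 past 1.5-fold and 208 past 4-fold. Lower genes numbered 2945 with a mean of at least 1 CPM, 3199 with no filter, 781 with 10 CPM in both libraries and 699 past 4-fold. Genes within the fold numbered 13824 with no filter and 3844 at 1.5-fold. Lower immune members numbered 141 with no filter and 15 with 10 CPM in both, where lower stromal members numbered 22. Higher tumor cell members numbered 56 with the correction and 29 past 4-fold, and lower ones 79 past 1.5-fold and 16 past 4-fold. With 10 CPM in both libraries, the medians of 6 lists turned positive: fibroblast identity 0.27, matrix proteases 0.90, contractile and YAP genes 0.76, growth factors 0.41, endothelial genes 0.55 and cytokines 1.17. The share of higher genes among those past 2-fold was 70.5% with that filter, 44.9% with a mean of at least 1 CPM, 42.9% with no filter and 22.9% past 4-fold, against 57.7%. The filter at a mean of 10 CPM left out the lymphoid and granulocyte lists, nearly all of whose genes had under 10 CPM in both libraries.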
